A study of Rattus norvegicus with 10 samples.

Results

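The genes described here encode 8 enzymes of phase I and phase II xenobiotic metabolism, measured in the gastrocnemius muscle of rats under calorie restriction (CR). They are *Sult1a1*, *Fmo1*, *Fmo2*, *Ephx1*, *Gsta1*, *Akr1c14*, *Nqo1* and *Gstm1*, and all 12 probe sets that the array annotation pairs with one of them alone were used, of 31099 probe sets on the array. The genes were chosen by their ratios to control and their slopes on the level of restriction on these same arrays, so those values are given as a description without a test. All 12 probe sets passed the filter on low signal that left 15521 probe sets and 9170 genes for testing, of 14218 genes with a probe set of their own. *Fmo2* and *Akr1c14* had 3 probe sets each, and the brightest one stands for the gene unless stated otherwise.

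Male Wistar rats bought at 5 weeks of age and 6 weeks old at the start received 100% of the intake of freely fed rats (control) or a ration lowered by 5%, 10%, 20% or 30%, for 1 week or 1 month, and all were fasted for 16 h before the muscle was taken. RNA of the 5 rats of each of the 10 groups was pooled and hybridized to 1 array, so no group had a replicate and the spread between rats was not measured. The trimmed mean signal was 99.64 on the 1-week arrays and 86.44 on the 1-month arrays. Over all genes tested the median log2 ratio of a restricted array to its control was between −0.01 and 0.01. The second description line of the 1-week control array speaks of reduced feeding and that of the 1-week 5% CR array of control feeding, against their titles and restriction labels. The titles were followed, and 1-week values with both arrays exchanged are given beside those as labelled. The 12 skeletal muscle markers, among them *Acta1*, *Ckm* and *Myh4*, were all among the genes tested. None of the 11 measured hepatocyte markers was, and the highest signal of any of them was 28.6 (*Ttr*), although several of the enzymes are best known from liver.

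Phase I enzymes add or expose a reactive group on a foreign compound, by oxidation, reduction or hydrolysis, and phase II enzymes couple the product to sulfate, glutathione or glucuronic acid so that it can leave the cell. Many of their genes are controlled by NRF2, a transcription factor released by KEAP1 under electrophilic stress that binds the antioxidant response element, or by ligand-activated receptors such as AHR, CAR and PXR. The liver holds most of the pathway. Skeletal muscle also expresses several of its members, in the fibres and in the connective tissue between them, and a pool of whole muscle cannot tell more cells of a type from more RNA per cell.

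Across the restricted groups, 5 of the 8 genes lay above the control of the same duration on all 8 arrays, namely *Sult1a1*, *Fmo1*, *Fmo2*, *Ephx1* and *Gsta1*. This held for 8.53% of the 9170 genes. The first 4 of these were at least 1.5-fold above control on all 8 arrays, as were 0.251% of all genes. At 30% CR, 5 of the 8 genes were at least 1.5-fold above control after 1 week (6.31% of all genes) and 6 after 1 month (5.77% of all genes), the sixth being *Akr1c14*. Nothing is read from these shares, since the ratios chose the genes. With the 1-week control and 5% CR arrays exchanged, 0 of the 8 genes lay above control on all 8 arrays, as the log2 ratios at 5% CR of *Sult1a1*, *Fmo1*, *Fmo2*, *Ephx1* and *Gsta1* were then −0.89, −0.65, −1.07, −1.11 and −0.49, and 3 of 8 were at least 1.5-fold above it at 30% CR after 1 week. The median log2 ratio of the 8 genes at 30% CR was 1.14 after 1 week and 1.27 after 1 month. The 1-week median was 0.418 after the exchange.

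**Figure D1:**
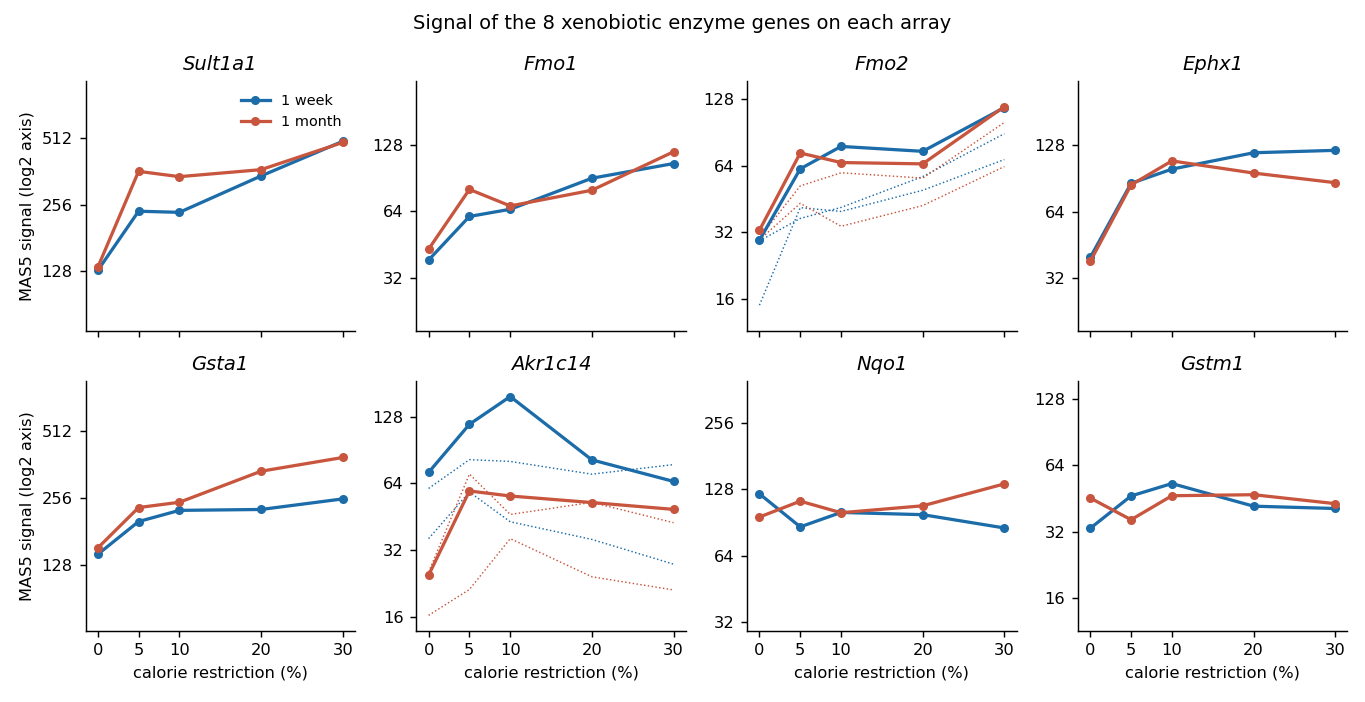
MAS5 signal (vertical, log2 axis, the same number of doublings in each panel) plotted by CR level (percent, horizontal) for the 8 genes, with 1 array per point, blue for 1 week and red for 1 month. Thick lines show the brightest probe set and dotted lines the other probe sets of *Fmo2* and *Akr1c14*. *Sult1a1* reached 496 from 129.3 after 1 week and 490.1 from 133.6 after 1 month, while the lines of *Nqo1* run in opposite directions.

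Among the phase I enzymes, the flavin-containing monooxygenases oxidize nitrogen and sulfur atoms of drugs and of natural amines. *Fmo1* had signals of 38.5 on the 1-week control and 60.6, 65.3, 90.2 and 105.1 at 5%, 10%, 20% and 30% CR. After 1 month it had 43.1 on the control and 80.3, 67.6, 79.6 and 118.8 on the restricted arrays in the same order. Both controls lay below all 8 restricted arrays, and the 30% arrays were the highest of their duration, at 2.73-fold and 2.76-fold the control. The slope was 0.44 ± 0.09 log2 per 10 percentage points of CR after 1 week (SE over 5 arrays, 3 residual degrees of freedom) and 0.38 ± 0.13 after 1 month. With the 1-week arrays exchanged, the log2 ratio at 30% CR was 0.79 instead of 1.45.

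*Fmo2*, the related enzyme best known from lung, had signals of 29.5 on the 1-week control and 62, 78.3, 74.4 and 117.3 on the 1-week restricted arrays in order of level. After 1 month the control had 32.7 and the restricted arrays 73.1, 66.2, 65.3 and 118.5. On this brightest probe set, the step from control to 5% CR (log2 1.07 and 1.16) was followed by similar signals up to 20% CR. A further step came at 30% CR (1.99 and 1.86). The other 2 probe sets of the gene were above control on all 8 arrays as well. After 1 week the second of them rose at each level, from 29.3 on the control to 37, 41.5, 57.2 and 89.4. After 1 month it had 30.2 on the control and 51.9, 59.5, 56.3 and 100.5 on the restricted arrays. At 30% CR its log2 ratios were 1.61 after 1 week and 1.73 after 1 month, and those of the dimmest were 2.19 and 1.10. The controls of the dimmest had signals of 15 and 29.6, the first below the mean signal of 17.84 that the filter asked for. After the exchange of the 1-week arrays the brightest probe set had a log2 ratio of 0.92 at 30% CR.

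*Fmo1* and *Fmo2* are neighbours on rat chromosome 13, from 77715405 to 77747666 and from 77755131 to 77777597 in the GRCr8 assembly, with 7465 bases from the end of the one to the start of the other. *Fmo4*, which lies beside them, had signals of 4.7 to 14.2 and *Fmo5*, which is not among these neighbours, of 7.8 to 18.6, so neither passed the filter. Of the nearest genes outside the family that were tested, *Myoc* had log2 ratios of 0.25 and 0.51 at 30% CR after 1 week and 1 month, *Vamp4* of 0.36 and −0.03, and *Mettl13* of 0.25 and −0.05.

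*Ephx1* encodes microsomal epoxide hydrolase, which opens reactive epoxides to diols. Its signal was 39.7 on the 1-week control and 85.9, 99.6, 118.1 and 121.1 at 5%, 10%, 20% and 30% CR. After 1 month it was 38.1 on the control and 84.5, 108.5, 95.6 and 86.5 on the restricted arrays. Both controls were lower than any restricted array, and every restricted array was at least 2.16-fold higher. As labelled, the log2 ratio at 5% CR was 69.2% of that at 30% CR after 1 week and 97.1% of it after 1 month. *Sult1a1* had 45.9% and 76.9% by the same measure. Among the 8 restricted arrays without controls, the *Ephx1* slope was 0.08 ± 0.07 (SE, 5 residual degrees of freedom). The 1-month slope was 0.27 ± 0.24, and −0.03 without the control array. When the 1-week arrays were exchanged, *Ephx1* had a log2 ratio of −1.11 at 5% CR and of 0.50 instead of 1.61 at 30% CR, so the 1-week share does not hold there.

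*Akr1c14* encodes a 3-alpha-hydroxysteroid dehydrogenase, an aldo-keto reductase that acts on steroids and on carbonyl compounds. It did not follow the level of restriction. Its brightest probe set had 71.7 on the 1-week control, 118.3 and 158 at 5% and 10% CR, and 81.7 and 65.3 at 20% and 30% CR. After 1 month it had 24.6 on the control and 59.1, 56.1, 52.4 and 48.8 on the restricted arrays. All 4 restricted arrays were thus above control after 1 month, by 1.98-fold to 2.40-fold, and 3 of 4 after 1 week, where the 30% array was below it. All 3 probe sets lay above control at 5% CR at both durations, and their log2 ratios there were 0.43 to 0.72 after 1 week and 0.39 to 1.47 after 1 month. They differed at 30% CR after 1 week, where their log2 ratios were −0.38, −0.13 and 0.36. The slope over the 8 restricted arrays was −0.28 ± 0.11, below 0 for all 3 probe sets (−0.28, −0.26 and −0.13). Exchanging the 1-week arrays left the brightest probe set above control at 10% CR alone (0.42), with a lowest log2 ratio of −0.86 at 30% CR.

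*Nqo1* encodes a quinone reductase that reduces quinones by transferring a pair of electrons to them, and is the standard target gene of NRF2. Its signal was 122 on the 1-week control and 86.5, 100.5, 98.2 and 85.5 on the 1-week restricted arrays in order of level. After 1 month it was 95.8 on the control and 113, 100.2, 107.7 and 135.3 on the restricted arrays. All 4 ratios were below 1 after 1 week (log2 −0.51 to −0.28) and above 1 after 1 month (log2 0.06 to 0.50), and on no array did the gene differ 1.5-fold from its control. The slopes were −0.11 ± 0.08 and 0.13 ± 0.05. Once the arrays were exchanged, the 1-week log2 ratios of *Nqo1* were 0.50, 0.22, 0.18 and −0.02.

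Among the phase II enzymes, *Sult1a1*, the phenol sulfotransferase, transfers sulfate to phenols, hormones and drugs. It had signals of 129.3 on the 1-week control and 239.6, 236.8, 345.8 and 496 at 5%, 10%, 20% and 30% CR. After 1 month it had 133.6 on the control and 362.8, 343.3, 369.3 and 490.1 on the restricted arrays. On the deposited scale, the controls of both durations and the 30% arrays of both durations were alike, with 3.84-fold and 3.67-fold the control at 30% CR. With arrays centred on their median, the 1-month signal was higher by 0.25 log2 on the controls and by 0.18 at 30% CR. In between, the milder levels of 5% and 10% stood at 1.85-fold and 1.83-fold after 1 week and at 2.72-fold and 2.57-fold after 1 month. The slope was 0.57 ± 0.10 at 1 week and 0.46 ± 0.22 at 1 month, and 0.31 ± 0.08 over the 8 restricted arrays without controls. With the 1-week arrays exchanged, the log2 ratio at 30% CR was 1.05 instead of 1.94.

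*Gsta1* encodes an alpha class glutathione S-transferase, which couples glutathione to electrophiles and reduces lipid peroxides. The annotation used here pairs its probe set with this gene alone. The authors listed another alpha class gene beside it, so the signal may hold both. Its signal was 142.4 on the 1-week control and 200.4, 225.1, 227.2 and 253.6 on the 1-week restricted arrays in order of level. After 1 month it was 152.2 on the control and 231.8, 244.9, 338.3 and 390.3. As labelled, the order of the levels was kept without exception at both durations, at 1.78-fold the control at 30% CR after 1 week and 2.56-fold after 1 month. The slopes were 0.22 ± 0.08 and 0.42 ± 0.08, and their difference was 0.19 ± 0.11. The exchange of arrays gave 0.34 instead of 0.83 for the log2 ratio at 30% CR and 1 week.

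*Gstm1*, of the mu class of the same enzymes, had no common direction. It had signals of 33.2 on the 1-week control and 46.5, 52.9, 41.8 and 40.8 on the 1-week restricted arrays, so that all 4 were above control. After 1 month the control had 45.5 and the restricted arrays 36.3, 46.6, 47.1 and 42.9, of which 2 were above and 2 below it. The slopes were 0.03 ± 0.12 and 0.02 ± 0.07. Under the exchange of arrays the 1-week log2 ratios ranged from −0.49 to 0.19, and that at 30% CR was −0.19 instead of 0.30.

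**Figure D2:**
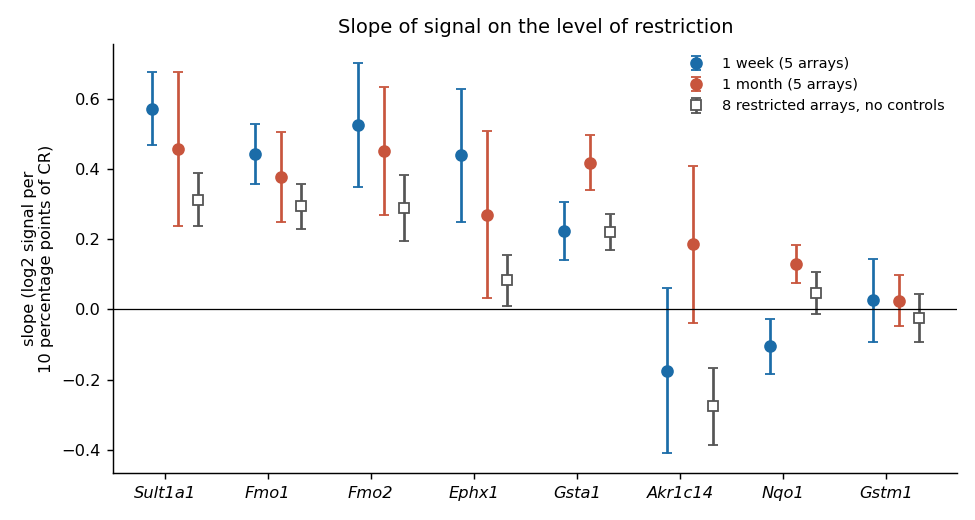
Change in log2 signal for each 10 percentage points of CR, as a fitted slope (vertical), for the 8 genes (horizontal). Filled circles are least squares slopes over the 5 arrays of a duration, open squares are slopes over the 8 restricted arrays with duration as a factor, and bars are SE. Without controls *Sult1a1*, *Fmo1*, *Fmo2* and *Gsta1* stood between 0.22 and 0.31, *Ephx1* at 0.08 and *Akr1c14* at −0.28.

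How far the 8 genes moved together was read from log2 signals centred within each duration over the 10 arrays. This is a description without a test, and the same 2 control arrays enter every correlation. The 8 genes were also chosen by their ratios and slopes on these arrays, so nothing is read from a high correlation among those that rose. Among *Sult1a1*, *Fmo1*, *Fmo2*, *Ephx1* and *Gsta1* the Pearson correlation was 0.81 to 0.97, highest for *Sult1a1* with *Fmo1*. *Akr1c14* had at most 0.54 with any other of the 8 genes (*Ephx1*) and *Gstm1* at most 0.40. *Nqo1* had 0.15 with *Gsta1* and −0.48 with *Gstm1*. Outside the 8 genes, the closest pattern to *Sult1a1* was that of *Foxo3*, a transcription factor of fasting (0.99), followed by *Shld1* and *Dusp7* (both 0.98). *Fmo1* was closest to *Sgce*, *Foxo3* and *Dusp7* (all 0.97). *Ephx1* was closest to the clock gene *Per2* and to *Ppl* (both 0.98) and then to *Xdh*, itself a phase I enzyme (0.97). *Fmo2* was closest to *Scara5* (0.99), *Sgce* (0.98) and *Pmm1* (0.96), and *Gsta1* to *Mfap5* (0.98), *Dcn* (0.97) and *Vim* (0.96). *Scara5*, *Mfap5* and *Dcn* are markers of the fibroblasts between muscle fibres.

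All 12 fibroblast markers listed were tested. Of these, 3 rose with restriction against control in limma, against 1.21% of all genes, and 0 fell, against 0.981%. The 3 were *Scara5* at 0.59 ± 0.12, *Clec3b* at 0.54 ± 0.13 and *Mfap5* at 0.51 ± 0.12 (log2, SE over 10 arrays). Other markers lay below control on some arrays, among them *Col3a1* and *Lum* after 1 month. *Col3a1* had 3219.4 on that control and 2639.8, 3004.2, 2789.5 and 3657.3 at 5%, 10%, 20% and 30% CR. *Lum* had 629.9 on it and 500.5, 477.8, 658.9 and 643.5 in the same order. Summed over the list, the 1-week control had 15058 and its restricted arrays 16663 to 16968. The 1-month control had 11302 and its restricted arrays 10740 to 14237. The median log2 ratio of the list at 30% CR was 0.39 after 1 week and 0.44 after 1 month, below those of *Sult1a1*, *Fmo1*, *Fmo2*, *Ephx1* and *Gsta1*. The part of the fibroblast markers in the values of these genes was not tested. As labelled, the slow fibre markers also set the 1-week control apart, with a sum of 3642, while its restricted arrays had 6884 to 15604. The 1-week 5% CR array, which is the control after the exchange, had 12902. The 1-month sums were 9571 for the control and 7224 to 10655 under restriction. The 1-month control stood apart in another list, the 12 skeletal muscle markers. Its summed signal was 105830, and its restricted arrays had 70125 to 88894. The median log2 ratio of these markers was −0.63 to −0.24 at that duration. The 1-week control had a sum of 101436 and its restricted arrays 108360 to 111984. At 30% CR after 1 month, *Sult1a1*, *Fmo1*, *Fmo2*, *Ephx1* and *Gsta1* were at 3.67, 2.76, 3.62, 2.27 and 2.56 times the control. The part of the slow fibre and skeletal muscle markers in the enzyme values was not tested. Of the 11 adipocyte markers measured, 6 were tested and 0 passed, and 0 of 11 endothelial markers tested passed. Of 11 macrophage markers tested, 1 rose, *Cd163* (1.25 ± 0.23). Summed, the macrophage markers had 744 on the 1-week control and 870 to 929 under restriction, and after 1 month 686 on the control and 698 to 1214 under restriction, highest at 30% CR. At 1 month the median log2 ratio of this list was 0.63 at 20% CR and 0.71 at 30% CR, above that of the fibroblast markers. Its part in the enzyme values was not tested.

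The 250 bases before the start are shown for the 4 genes that were, as labelled, at least 1.5-fold above control on every restricted array. They come from RefSeq, GRCr8, minus strand, and are read 5′ to 3′ in the direction of transcription. *Gsta1*, also above control on all 8 arrays, is not shown, as it was at 1.41-fold the control at 5% CR after 1 week. Capitals mark matches to 7 motifs searched on both strands: the antioxidant response element core TGACNNNGC, the xenobiotic response element TNGCGTG, the D-box TTATGNAA, the E-box CACGTG, the ROR hexamer AGGTCA, a forkhead site GTAAACA and the glucocorticoid hexamer AGAACA. The windows are *Sult1a1* chr1:190706113-190706362, *Fmo1* chr13:77747667-77747916, *Fmo2* chr13:77777535-77777784 and the outermost start of *Ephx1* chr13:95275853-95276102.
Sult1a1: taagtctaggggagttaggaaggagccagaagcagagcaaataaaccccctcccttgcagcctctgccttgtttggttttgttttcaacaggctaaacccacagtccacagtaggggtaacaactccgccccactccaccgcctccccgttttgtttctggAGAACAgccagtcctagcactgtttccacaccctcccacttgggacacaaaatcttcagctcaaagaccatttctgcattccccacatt
Fmo1: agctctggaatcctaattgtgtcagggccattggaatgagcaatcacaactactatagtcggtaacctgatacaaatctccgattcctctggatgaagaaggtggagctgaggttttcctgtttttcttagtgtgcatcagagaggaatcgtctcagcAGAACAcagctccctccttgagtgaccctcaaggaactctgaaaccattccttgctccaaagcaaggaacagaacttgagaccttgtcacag
Fmo2: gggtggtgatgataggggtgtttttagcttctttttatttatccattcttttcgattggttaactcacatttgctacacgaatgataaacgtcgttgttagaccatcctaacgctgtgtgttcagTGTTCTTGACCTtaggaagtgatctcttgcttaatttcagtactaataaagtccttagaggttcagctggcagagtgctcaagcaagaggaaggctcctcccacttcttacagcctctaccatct
Ephx1: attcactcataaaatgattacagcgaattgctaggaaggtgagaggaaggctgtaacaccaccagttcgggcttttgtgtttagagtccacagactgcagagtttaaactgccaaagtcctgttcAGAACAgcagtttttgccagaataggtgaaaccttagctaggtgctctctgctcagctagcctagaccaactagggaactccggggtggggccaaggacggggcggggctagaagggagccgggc

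Each of these 4 windows held the letters of the glucocorticoid hexamer once, starting 89, 92, 125 and 125 bases before the start of *Sult1a1*, *Fmo1*, *Fmo2* and *Ephx1*. So did that of *Gstm1*, while those of *Gsta1*, *Akr1c14* and *Nqo1* did not. The window of a second start inside *Ephx1* did not hold these letters either. These letters occur in 17.5% of the 33469 promoter windows of this length. Several motifs were searched and the windows shown were chosen by their ratios to control, so nothing is read from the shared match. In *Fmo2* the match is on the other strand and directly followed by a ROR hexamer, which 14.1% of all windows hold. ROR hexamers were also met in the windows of *Gstm1* and of the second start of *Ephx1*. The antioxidant response element core is found in 10.1% of all windows. Among 9 windows of the 8 genes it was met only in that of the second *Ephx1* start, 57 bases before that start. None of these matches was shown here to be bound by a factor.

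Whether the enzymes differ between 1 month and 1 week of treatment is a comparison that the choice of the genes did not use. Rats treated for 1 month were also older when sampled, so age cannot be told apart from time on the ration. The same holds for any difference between the 2 sets of arrays. It was tested in limma over all 10 arrays adjusting for restriction level, with each array centred on its median, since the 2 durations had been scaled to different means. *Gsta1* was higher after 1 month by 0.54 ± 0.11 log2, or 1.45-fold (adjusted p = 0.00561), at all 5 levels including control, with differences of 0.30 to 0.82. It was the only one of the 8 genes that passed as higher, against 5.41% of all genes, and 0 passed as lower, against 4.99% of all genes, with 1 lower at an unadjusted p under 0.05. That gene was *Akr1c14*, at −0.80 ± 0.26 log2 (adjusted p = 0.0621), lower after 1 month at all 5 levels, with differences of −1.34 on the controls and −0.22 at 30% CR. Its other probe sets were at −0.55 and −0.50.

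*Sult1a1* was at 0.47 ± 0.18 (adjusted p = 0.113) and, after centring, higher at all 5 levels, and *Fmo1* was at 0.34 ± 0.14 (adjusted p = 0.138), also at all 5. *Nqo1* was at 0.38 ± 0.12 (adjusted p = 0.0576), higher at the 4 restricted levels and lower by 0.14 on the controls. Without centring, on the deposited scale, the differences of *Gsta1*, *Sult1a1*, *Fmo1* and *Nqo1* were 0.32, 0.25, 0.12 and 0.17, and those of *Fmo2* and *Ephx1* were below 0 (−0.01 and −0.15). *Fmo2* (0.21 ± 0.19), *Gstm1* (0.25 ± 0.14) and *Ephx1* (0.07 ± 0.23) did not pass. *Gsta1* passed under all alternatives run, with an adjusted p of 0.000782 to 0.038. *Sult1a1* passed in limma with levels paired (adjusted p = 0.0161), without both controls (0.011) and without the 1-month control (0.0151), over a range of 0.011 to 0.29. *Akr1c14* passed with levels paired (adjusted p = 0.0119), without centring (0.00932), without both controls (0.0192) and without the 1-week 30% CR array (0.0359), over a range of 0.00932 to 0.151. *Nqo1* passed without both controls, without the 1-week control (adjusted p = 0.0112) and without the 1-month control (0.0423).

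**Figure D3:**
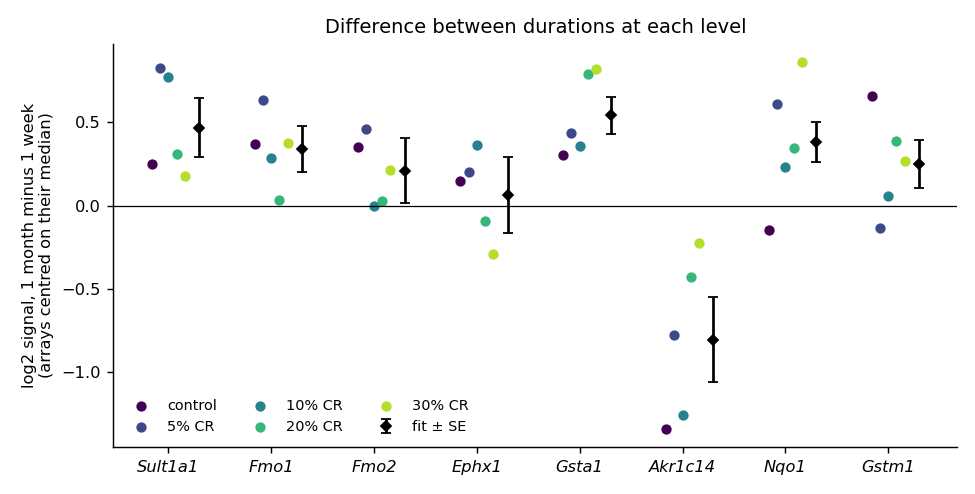
Difference in log2 signal between 1 month and 1 week, arrays centred on their median (vertical), for the 8 genes (horizontal). Circles are the 5 levels, each 1 array against 1 array, and diamonds the limma estimate with its SE. *Gsta1* was higher after 1 month at every level and *Akr1c14* lower at every level.

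The other genes of foreign compound handling show what surrounded the 8 enzymes. Of 129 further genes listed by role, 119 had a probe set of their own and 80 were tested. Restricted against control, 5 of 80 (6.25%) rose in limma, against 1.21% of all genes, and 0 fell, against 0.981% of all genes, with 3 lower at an unadjusted p under 0.05. The median was 0.08 log2 for the 80 genes and 0.00 for all genes. On the slope over all 10 arrays, 1 of 80 rose, against 1.12% of all genes, and 0 fell, against 1.07% of all genes, with 2 lower at an unadjusted p under 0.05. Without the 1-week control, none of the 80 passed for restricted against control in limma (11 higher at an unadjusted p under 0.05), and with the 1-week arrays exchanged none did either (5 higher). Without the 1-month control 2 rose and 1 fell. *Trim16* lost its slope call without either control or without the 1-week 30% CR array.

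The transcription factor NRF2 and some of its targets were among the genes that rose, while other targets lay below control. *Nfe2l2*, which encodes NRF2, had 229.7 on the 1-week control against 296.7 to 343.3 on the restricted arrays, and 241.1 against 293.6 to 353.2 at 1 month, a rise of 0.46 ± 0.09 log2 (adjusted p = 0.0137). *Srxn1*, sulfiredoxin, which restores oxidized peroxiredoxins, rose by 1.10 ± 0.20 (adjusted p = 0.0119), with control signals of 14 and 27 and restricted signals of 35.6 to 51.6. Its difference was 0.68 without the 1-week control (adjusted p = 0.252 in limma) and 1.51 without the 1-month control. *Osgin1*, an oxidative stress response gene, rose by 0.73 ± 0.14 (adjusted p = 0.0126). Of the 6 targets tested, 2 rose, 0 fell and 4 did not pass. Among the latter, *Hmox1*, heme oxygenase, was at −0.21 ± 0.19 and *Blvrb*, biliverdin reductase B, at −0.32 ± 0.15. Both lay below control on all 8 arrays. *Txnrd1* was at 0.03 ± 0.13 and *Trim16* at 0.51 ± 0.14. *Trim16* was the 1 gene to rise with the level, by 0.22 ± 0.04 per 10 percentage points (adjusted p = 0.0216). *Keap1*, which holds NRF2 back, was at 0.22 ± 0.09 (adjusted p = 0.286). *Nqo1*, the usual reporter of NRF2, did not share the direction of *Srxn1* and *Osgin1* at 1 week, as given above. *Rxra* was at 0.16 ± 0.12 among the 10 receptors and regulators tested, of which 1 rose.

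Of the 27 other phase I genes tested, 1 rose. *Xdh*, xanthine oxidoreductase, had signals of 180.2 and 209.7 on the controls and 298.4 to 387.9 on the restricted arrays, a rise of 0.82 ± 0.10 (adjusted p = 0.000757). *Cyp4b1*, a fatty acid and xenobiotic hydroxylase, was at 0.46 ± 0.16 (adjusted p = 0.177), above control on all 8 arrays. *Akr1b1*, aldose reductase, was at −0.21 ± 0.06 (adjusted p = 0.0994) and below control on all 8. *Ephx2*, the soluble epoxide hydrolase, was at 0.03 ± 0.11, *Nqo2* at −0.15 ± 0.09, and 4 other aldo-keto reductases tested were between −0.21 and 0.22.

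Of the 19 other phase II genes tested, 1 rose. *Gstm5*, of the mu class like *Gstm1*, rose by 0.51 ± 0.11 (adjusted p = 0.0335), with control signals of 134.1 and 154.5 and restricted signals of 162.6 to 228.5. The other mu class genes were at 0.33 ± 0.14 (*Gstm2*), 0.18 ± 0.11 (*Gstm7*) and −0.13 ± 0.13 (*Gstm4*), and *Gsta4*, of the alpha class, at 0.11 ± 0.24. *Mgst1*, a microsomal glutathione transferase, was at 0.67 ± 0.27 (adjusted p = 0.255). *Sult5a1* was the only other sulfotransferase of 7 to pass the filter, at −0.12 ± 0.19. Restricted against control, 13 of the 19 genes were above 0 (68.4%), against 49% of all genes. The slope was positive for 18 of the 19 genes, against 51.2% of all genes, and 0 of the 19 passed singly, with 4 higher at an unadjusted p under 0.05.

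**Figure D4:**
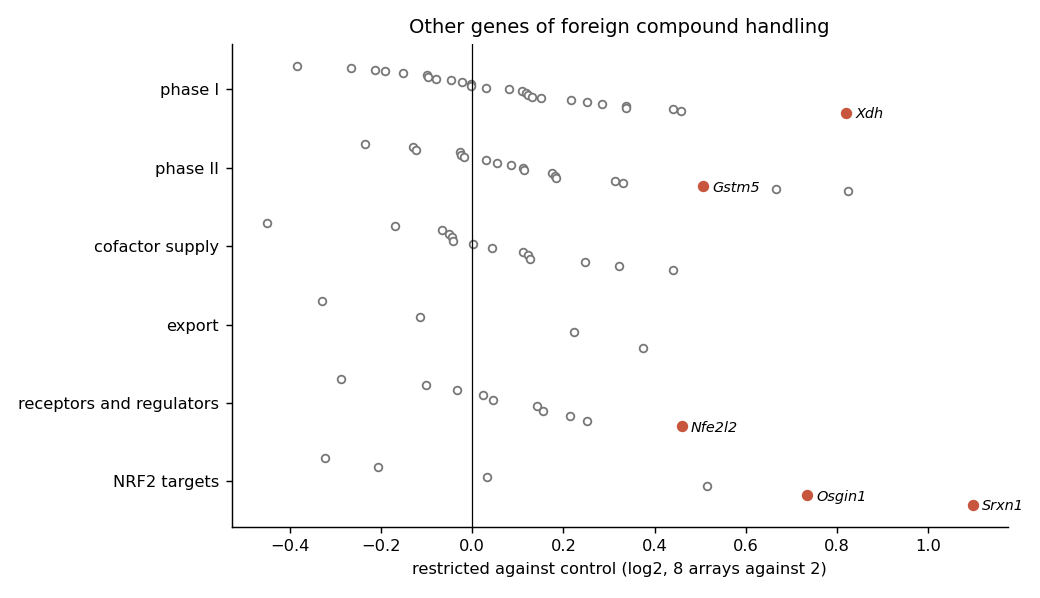
Restricted against control (horizontal, log2, 8 restricted against 2 control arrays, limma estimate) for the 80 other genes tested, by role (vertical). Filled points passed at an adjusted p under 0.05 and open points did not. The 5 genes that rose were *Xdh*, *Gstm5*, *Nfe2l2*, *Osgin1* and *Srxn1*.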

How the data were processed

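The authors deposited signal intensities on a linear scale, made with MAS5 per the submitters' processing notes, 1 value per probe set and array, scaled array by array, without detection calls. Each array carried RNA pooled from 5 rats; their number limits the precision, and no group had a replicate array. A floor of 0.1 was applied before taking log2. Array controls were excluded, and testing was limited to probe sets whose mean log2 signal reached the 50th percentile. Of 31099 probe sets, 20832 carried 1 gene, 436 several and 9831 none in the platform annotation, and 20764 of the first were matched to RefSeq by gene identifier. For each gene the brightest probe set was used.

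Linear models were fitted in limma 3.58.1 under R 4.3.3 (lmFit, eBayes with trend). Adjusted p-values follow Benjamini and Hochberg over all 15521 probe sets, with a threshold of 0.05 and 7 residual degrees of freedom. Restricted against control and the slope on level had duration as a factor. Since groups held 1 array each, residual spread was taken around these models. Slopes within 1 duration were fitted by least squares over 5 arrays. The scripts were tested on simulated data. The genes, lists and tests were chosen with earlier results of these data known. Named genes were the 8 enzymes, every listed gene that passed and up to 2 more per role with the smallest p, and the 3 genes with the closest pattern to each enzyme. Relatives of the enzymes (*Ephx2*, *Nqo2*, *Fmo4*, *Fmo5*, *Sult5a1*, *Gsta4*, *Gstm4*, *Gstm7*), the neighbours of *Fmo1* and marker genes that passed were named in addition, with values seen. So were the fibroblast markers *Col3a1* and *Lum* and the NRF2 target *Txnrd1*. Summaries used Python 3.11.15. Alternatives were quantile normalization, median centring or none, other filters, log2 of signal plus 32, eBayes without trend, ranks of levels, levels as a factor, controls left out, averaged probe sets, exchanged arrays and leaving out each array.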

Additional observations from a re-analysis of the deposited data

Results flagged for a closer look

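*Nqo1* stood out because its 4 restricted arrays all lay below control after 1 week (log2 ratios of −0.51 to −0.28) and all lay above it after 1 month (0.06 to 0.50). At 30% CR the log2 ratio was 1.01 higher after 1 month than after 1 week. The slope on level was higher by 0.24 ± 0.10 log2 per 10 percentage points after 1 month. These differences in the response to restriction were not tested, unlike the difference in signal between the durations given above. With the 1-week control and 5% CR arrays exchanged, 3 of the 4 log2 ratios at 1 week were above 0.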

How the results depend on the processing

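With 1 array per group, a pool of 5 rats, every value rests on single arrays and on 2 controls, and signals near the filter carry the least information. The median log2 ratio of the 8 enzymes at 30% CR was 0.836 at 1 week and 0.882 at 1 month with log2 of signal plus 32, and 0.418 at 1 week with the 1-week control and 5% CR arrays exchanged, and 1.16 at 1 week with median centring and with quantile normalization. Leaving out single arrays, the median slope lay between 0.156 and 0.432 after 1 week and between 0.149 and 0.395 after 1 month, lowest without the control of that duration. Ratios to control cannot be computed without a control. Signs changed for *Gstm1* with the arrays exchanged (−0.189 at 30% CR and −0.0164 for the 1-week slope). Over single arrays left out, slopes spanned 0 for *Gstm1* (−0.118 to 0.126 after 1 week, lowest without the control, and −0.0239 to 0.0835 after 1 month, lowest without 5% CR), *Akr1c14* (−0.445 to 0.0382, highest without 30% CR, and −0.108 to 0.412, lowest without the control) and *Ephx1* (−0.0304 to 0.572 after 1 month, lowest without the control).

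For 1 month against 1 week, 1 of the 8 genes was lower without centring. With levels paired as a factor, 2 were higher and 1 lower, and without controls 3 were higher and 1 lower. Leaving out single arrays gave 1 to 3 higher, with 2 without the 1-week control and 3 without the 1-month control, and 0 to 1 lower, with 1 without the 1-week 30% CR array. Of the other pathway genes, 5 rose with restriction, 2 did with eBayes without trend and 0 with the arrays exchanged, and 1 fell (*Akr1b1*) with quantile normalization. Single arrays left out gave 0 to 6 rises, 0 without the 1-week control and 2 without the 1-month control, and 0 to 1 falls, 1 without the 1-month control. With the slope, 1 rose in the fit reported, 2 with median centring, 2 with the 70th percentile filter, 0 with eBayes without trend, 0 with the arrays exchanged and 5 with ranks of levels. Single arrays left out gave 0 to 5 rises, 0 without either control or the 1-week 30% array and 5 without the 1-month 5% array, and 0 to 1 falls. The causes were not tested. Where 0 passed in limma, 10 to 13 were higher on the slope at an unadjusted p under 0.05.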

Other observations

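Genes that supply the cofactors of conjugation and the transporters that export its products were measured as well. Of 14 cofactor genes, 0 passed for restricted against control in limma, with 1 higher and 1 lower at an unadjusted p under 0.05. *Idh1*, a cytosolic source of NADPH, was at 0.25 ± 0.08 log2 (adjusted p = 0.16) and above control on all 8 arrays, and *Me1*, malic enzyme, which also makes NADPH, at −0.45 ± 0.12 (adjusted p = 0.0817) and above control on 1 of 8. Without the 1-month control *Me1* passed at −0.75, without the 1-week control it was at −0.15 (adjusted p = 0.719), and with the 1-week arrays exchanged at 0.04. Of 4 exporters tested, 0 passed, with 1 higher and 1 lower at an unadjusted p under 0.05, *Abcb4* being at 0.38 ± 0.14 and *Abcc4* at −0.33 ± 0.15. The value of *Abcb4* was 0.11 without the 1-week control and 0.64 without the 1-month control. *Blvrb*, listed among the NRF2 targets, was at −0.32 ± 0.15 and below control on all 8 arrays, as given above.

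The 3 enzymes without a common pattern each had other close neighbours over the 10 arrays. *Nqo1* was closest to *Rnpepl1* (Pearson correlation 0.98), *Slirp* and *Wdr83os* (both 0.91). *Gstm1* was closest to *Wipf1* (0.97), *Fnip1* (0.96) and *Pnn* (0.95), and *Akr1c14* to *Eeig2* (0.93), *Mmrn2* (0.92) and *Rrp9* (0.91).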
